A study of Mus musculus with 16 samples.

Results

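In adult mouse cardiomyocytes, 1106 promoter peaks of histone H3 acetylated at lysine 27 (H3K27Ac) overlapped no listed peak of Des-/- hearts after swimming. Each was listed in Des+/+ hearts at rest and overlapped peaks listed in Des-/- hearts at rest and in Des+/+ hearts after swimming. They were chosen from the 15757 H3K27Ac peaks of the Des+/+ basal list. A peak had to lie within 1000 bp of an annotated transcription start, be narrower than 2500 bp and have an input height below 10 reads, which left 9976 peaks. It also had to overlap, by at least 1 bp, a peak of the Des-/- basal list and a peak of the Des+/+ swim list, which left 6511. Of these 6511, 1106 (17.0%) overlapped no peak of the Des-/- swim list, and the other 5405 were kept in all 4 lists. Presence in the lists therefore chose the members, and the counts below describe them without testing them. The members were annotated to 1051 genes, and 52 genes held more than 1 of them. Members are not independent of each other, since 53 of them shared a Des+/+ swim peak with another member.

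H3K27Ac marks active promoters and enhancers, and it is set by the acetyltransferases p300 and CBP and removed by histone deacetylases. At a promoter it usually flanks the transcription start of a gene that is being transcribed. Desmin is the muscle intermediate filament protein that links Z-discs to each other, to the cell junctions and to the nucleus, and its loss in mice causes a cardiomyopathy.

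The series profiled H3K27Ac and lamin A/C by ChIP-seq in cardiomyocytes that had been isolated from hearts of 3-month-old mice by enzymatic perfusion. Wild-type (Des+/+) and desmin-null (Des-/-) mice, the latter lacking desmin in the whole animal, were kept at rest (basal) or subjected to swimming exercise (swim), a mild muscular stress. Chromatin came from several mice of each genotype and condition, and there was 1 H3K27Ac library per group. No difference between groups therefore has a replicate check, and no p-value is given. Every interval below covers counting error only. In chromatin from many cells, fewer cells carrying the mark and less mark per cell cannot be told apart.

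The 4 H3K27Ac lists held 10407 to 16638 peaks, fewer after swim than at rest in both genotypes. Peak height is the ChIP read coverage at the peak, and no list held a peak below 15 reads. The Des-/- swim list stood apart in its input. Its mean input height was 5.48 reads against 2.80 to 3.06 in the other lists, and 34.1% of its peaks had an input of 7 reads or more against 1.14% to 1.66%. All 10 cardiomyocyte marker genes had a peak annotated to them in 3 of the lists. In Des-/- swim 7 had one, and Actc1, Myl2 and Actn2 had none. Fibroblast markers were nearly absent, with a peak at 0 to 3 of 8 genes, and leukocyte markers had a peak at 0 or 1 of 8. Endothelial markers were present, at 6 to 8 of 8 genes.

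The sequences at the members ranged from CpG-rich to CpG-free. Each sequence is the 200 bp of the GRCm38 mouse genome around the highest point of the Des+/+ basal peak, with every CpG in capitals. The first 4 are from the members that were highest in Des+/+ swim, all of them borders of regions that kept a Des-/- swim peak beside the member, and each lies upstream of its start or, at Ciapin1, 865 bp within the gene.
Rap2a, chr14:120477275-120477474, plus strand: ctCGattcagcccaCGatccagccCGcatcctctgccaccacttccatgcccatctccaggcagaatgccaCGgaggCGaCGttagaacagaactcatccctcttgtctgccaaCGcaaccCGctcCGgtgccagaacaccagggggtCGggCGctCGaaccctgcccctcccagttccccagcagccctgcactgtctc
Cfl2, chr12:54863000-54863199, plus strand: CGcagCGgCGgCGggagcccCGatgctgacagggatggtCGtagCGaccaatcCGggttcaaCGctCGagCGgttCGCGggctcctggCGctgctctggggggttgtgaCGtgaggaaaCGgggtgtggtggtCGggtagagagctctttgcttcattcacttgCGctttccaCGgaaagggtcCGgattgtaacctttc
Ttpal, chr2:163601791-163601990, plus strand: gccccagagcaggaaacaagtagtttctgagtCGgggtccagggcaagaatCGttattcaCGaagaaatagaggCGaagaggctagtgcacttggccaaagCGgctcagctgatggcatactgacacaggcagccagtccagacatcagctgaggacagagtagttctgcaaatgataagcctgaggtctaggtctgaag
Ciapin1, chr8:94836800-94836999, plus strand: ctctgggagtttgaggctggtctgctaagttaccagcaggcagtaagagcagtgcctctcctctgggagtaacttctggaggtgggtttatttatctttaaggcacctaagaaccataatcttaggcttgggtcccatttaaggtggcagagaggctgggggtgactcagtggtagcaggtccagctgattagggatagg
Cfl2, which encodes the muscle form of the actin-severing protein cofilin, had 20 CpG in this window, and Ciapin1, a gene of iron-sulfur cluster assembly, had 0. The next pair are the highest members of the sarcomere and contraction list, Myom1 and Synpo2l, with 8 and 3 CpG, of which Myom1 is also a border.
Myom1, chr17:71019035-71019234, plus strand: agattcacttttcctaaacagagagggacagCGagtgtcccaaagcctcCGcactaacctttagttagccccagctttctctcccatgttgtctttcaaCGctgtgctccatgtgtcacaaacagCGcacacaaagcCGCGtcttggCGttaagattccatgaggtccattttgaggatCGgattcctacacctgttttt
Synpo2l, chr14:20664318-20664517, plus strand: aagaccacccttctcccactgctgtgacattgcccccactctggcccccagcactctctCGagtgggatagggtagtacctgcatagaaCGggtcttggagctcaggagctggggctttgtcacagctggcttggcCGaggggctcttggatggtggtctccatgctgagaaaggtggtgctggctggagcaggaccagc
The last 3 were picked after their values were seen, because their peaks cover or adjoin starts of muscle genes that the results below turn on. Actn2 had 10 CpG, and Sgca and Pln had 1 each.
Actn2, chr13:12340264-12340463, plus strand: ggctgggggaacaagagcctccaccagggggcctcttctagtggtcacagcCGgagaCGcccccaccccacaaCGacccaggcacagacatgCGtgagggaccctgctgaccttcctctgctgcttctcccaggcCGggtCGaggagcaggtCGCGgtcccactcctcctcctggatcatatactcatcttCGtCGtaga
Sgca, chr11:94975938-94976137, plus strand: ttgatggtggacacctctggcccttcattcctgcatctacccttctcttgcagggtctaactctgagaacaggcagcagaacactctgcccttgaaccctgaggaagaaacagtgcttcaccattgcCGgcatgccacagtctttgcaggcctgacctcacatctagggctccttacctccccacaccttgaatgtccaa
Pln, chr10:53336723-53336922, plus strand: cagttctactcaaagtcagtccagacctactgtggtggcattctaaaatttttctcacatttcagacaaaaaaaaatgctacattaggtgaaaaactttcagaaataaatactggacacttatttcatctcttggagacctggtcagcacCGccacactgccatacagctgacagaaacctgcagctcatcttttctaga

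The members were low peaks in the swimming wild-type heart. Their Des+/+ swim height ranged from 15 to 69 reads with a median of 18, and 873 of the 1106 (78.9%) stood between 15 and 20 reads. At rest their median was 22 reads in Des+/+ and 25 in Des-/-. The share of eligible peaks that were missing fell steeply with height. At 15 reads in Des+/+ swim it was 41.9% (179 of 427 peaks, Wilson interval 37.3% to 46.7%), at 20 reads 20.3% (80 of 394), and at 41 reads or more 0.923% (7 of 758). A height of 15 reads has itself an exact Poisson interval of 8.40 to 24.7 reads. The opposite set behaved likewise. Of 6382 promoter peaks present in both basal lists and in Des-/- swim, 977 (15.3%) had no Des+/+ swim partner, and that share fell from 51.1% at 15 reads in Des-/- swim to 0.792% at 41 or more.

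**Figure D1:**
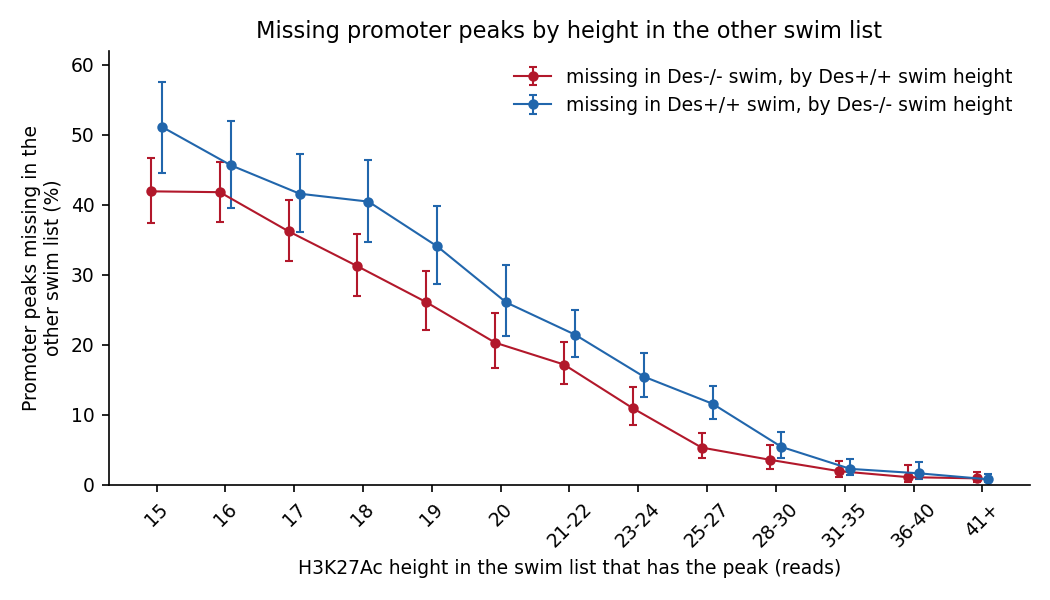
Percent of promoter peaks missing in one swim list (vertical axis) by H3K27Ac height in reads in the other swim list (horizontal axis), with 95% Wilson intervals. Red points are peaks missing only in Des-/- swim and blue points are peaks missing only in Des+/+ swim. Both shares fall with height, from 41.9% and 51.1% at 15 reads to below 1% from 41 reads.

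Members were compared with kept peaks weighted to the same distribution of Des+/+ swim heights. Even so, members were lower at rest. Their median was 22 reads in Des+/+ basal against 27 for the kept peaks, and 25 reads in Des-/- basal against 30. They were also narrower in Des+/+ basal, 824 bp against 939 bp, and covered the annotated start less often, in 73.7% (Wilson interval 71.0% to 76.2%) against 82.1%. These traits were not particular to the members. Peaks missing only in Des+/+ swim, not weighted by height, had medians of 21 reads in Des+/+ basal and 24 in Des-/- basal. Their median width in Des+/+ basal was 715 bp, and 73.5% of them covered the start. Input heights were alike, with a median of 3 reads in members and in kept peaks in each of the 3 lists that both have. The kept peaks of equal height had a median of 22 reads in Des-/- swim, and 79.1% of them were higher there than in Des+/+ swim. Kept peaks have at least 15 reads in Des-/- swim by choice. Those near 15 reads in Des+/+ swim could thus hardly be lower, and the share is partly set by the selection. The median input of these kept peaks in Des-/- swim was 6 reads. Whether the input of that list bears on which peaks were missing was not tested.

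From rest to swim in the wild type, 870 members (78.7%) were lower in swim, 162 (14.6%) higher and 74 equal. Of the kept peaks of equal height, 92.7% were lower in swim and 4.35% higher. A lower height in the Des+/+ swim list was thus the common direction of both sets. Of all kept peaks, 91.1% were likewise lower in Des-/- swim than in Des-/- basal. Heights are unscaled and library depth is unknown, and the part of depth in these differences was not tested. In the basal lists, 695 members (62.8%) were higher in Des-/- than in Des+/+ and 334 (30.2%) lower, against 65.3% and 28.8% of the kept peaks of equal height. Most members were thus not lower in resting Des-/- hearts.

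The highest members were mostly borders of larger acetylated regions. At 123 members, the Des-/- basal or Des+/+ swim peak that overlapped the member was wide enough to overlap a Des-/- swim peak as well, so the promoter region kept a peak and its border did not. At the other 983, neither partner peak overlapped a Des-/- swim peak, although 97 of them (9.87%) had one within 500 bp. Among the 10 members highest in Des+/+ swim, 9 were such borders. Rap2a, encoding a small GTPase, had 16 reads in resting Des+/+ hearts, 98 in resting Des-/- hearts and 69 in Des+/+ swim at a member only 361 bp wide. Cfl2 had 22, 15 and 55 reads in the same order. Ciapin1 had 17, 63 and 48 reads. At each of these the Des+/+ swim peak was wider than the member, so its height may lie outside the member. The other border members of the 10 were Ttpal (48 reads in Des+/+ swim), Dcaf12 (45), Rnf111 (43), Ensa (41), Dnajb5 (39) and Pop7 (36).

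Where the whole region lacked a Des-/- swim peak, heights were more even. The highest such member was Gtf3c1, encoding a subunit of the RNA polymerase III factor TFIIIC, with 44 reads in resting Des+/+ hearts, 46 in resting Des-/- hearts and 36 in Des+/+ swim. Ptp4a3, a tyrosine phosphatase gene, had 37, 42 and 35 reads. Mlycd, encoding malonyl-CoA decarboxylase, which relieves the block on fatty acid entry into mitochondria, had 40, 39 and 31 reads. These peaks were thus tall in all 3 lists that have them. Only 43 of the 983 reached 25 reads in Des+/+ swim. At 742 of the 983 (75.5%), no Des-/- swim peak was annotated to the gene, at its start or elsewhere. A peak annotated to a neighbouring gene did not count. Annotation can miss a peak, since 74 of the 5405 kept peaks also had none annotated to their gene.

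Genes of the sarcomere and contraction apparatus stood out among the members. Of their 40 eligible promoter peaks, 17 were missing in Des-/- swim (42.5%, Wilson interval 28.5% to 57.8%), where 17.0% of all eligible peaks were. Had each of the 40 been missing at the rate of all peaks of its own height, 5.54 would have been. The opposite comparison gave 2 of 25 contraction peaks missing only in Des+/+ swim, against 6.66 at the rate of all peaks of the same height. Both comparisons share the basal lists. At 20 reads or more in Des+/+ swim, where 313 of 4291 peaks were missing, 9 of 31 contraction peaks were. Of these 9, 2 at Pdlim5 overlapped the same Des+/+ swim peak, and those at Myom1 and Tcap were borders of regions that kept a Des-/- swim peak. Contraction genes with any peak numbered 48 and 47 in the Des+/+ and Des-/- basal lists, then 40 after swim in the wild type and 29 after swim without desmin. Over all genes these numbers were 9431, 9955, 7167 and 7054, in the same order.

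The 17 members belonged to 16 genes from each layer of the sarcomere. At the Z-disc, Actn2, encoding the actin cross-linker alpha-actinin 2, had 25 reads in resting Des+/+ hearts, 29 in resting Des-/- hearts and 23 in Des+/+ swim. Synpo2l, encoding a Z-disc protein that binds actin, had 35, 28 and 24 reads. Tcap, encoding the cap that anchors titin, had 26, 27 and 23 reads, and its partner peak reached a Des-/- swim peak at a neighbouring part of the promoter. Ttn itself, the elastic filament of the sarcomere, had 25, 25 and 21 reads. Actn2, Tcap and Ttn differed by 6 reads at most among the 3 lists that have them, while Synpo2l was highest in resting Des+/+ hearts.

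On the filaments, Tnni3, the inhibitory subunit of cardiac troponin, had 21 reads in resting Des+/+ hearts, 19 in resting Des-/- hearts and 18 in Des+/+ swim. Myl3, a ventricular myosin light chain, had 27, 21 and 18 reads. Mybpc3, cardiac myosin-binding protein C, had 29, 17 and 15 reads. Tpm1, the tropomyosin that covers actin, had 24, 26 and 16 reads. Lmod2, which elongates thin filaments, had 35, 40 and 16 reads and was a border member. Tnni3, Myl3 and Tpm1 each also kept another promoter peak. Those kept peaks had 28, 25 and 25 reads in Des+/+ swim and 27, 17 and 16 in Des-/- swim, in that order. In this group the unscaled height was lower in Des+/+ swim than in Des+/+ basal at every member, most at Lmod2. The M-band gene Myom1 went the other way, with 15, 17 and 33 reads, but its member is 494 bp wide beside a kept peak at the same start.

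The remaining contraction members were Fhod3, a formin that builds thin filaments (22 reads in Des+/+ swim), the muscle ring-finger genes Trim54 (21) and Trim63 (19), 2 peaks of Pdlim5 (20 each), Xirp1 (16) and Mylk3, the cardiac myosin light chain kinase (15). The 2 Pdlim5 members overlapped the same Des+/+ swim peak. Across the 17, heights at rest were lower in Des-/- than in Des+/+ at 8, higher at 7 and equal at 2. From rest to swim in the wild type, 14 were lower and 3 higher. At 7 of the 16 genes no Des-/- swim peak was annotated to the gene, against 722 of the 1051 genes of all members. Actn2, Synpo2l, Mybpc3 and Trim63 were among the 7. At 6 others (Tcap, Myom1, Tnni3, Myl3, Tpm1 and Xirp1) another promoter peak was kept. Of the 10 cardiomyocyte markers, 5 had a member (Actn2, Myl3, Pln, Tnni3 and Ttn). The summed height of the highest peak of each marker was 314 reads in each basal list, then 271 after swim in Des+/+ and 147 after swim in Des-/-. Actc1, Myl2 and Actn2, without a listed Des-/- swim peak, added nothing to that sum, although heights below 15 reads are not listed. For the endothelial markers the sums were 365 and 311 reads at rest and 200 and 204 after swim, Des+/+ given first. The part of cell composition in the contraction result was not tested.

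**Figure D2:**
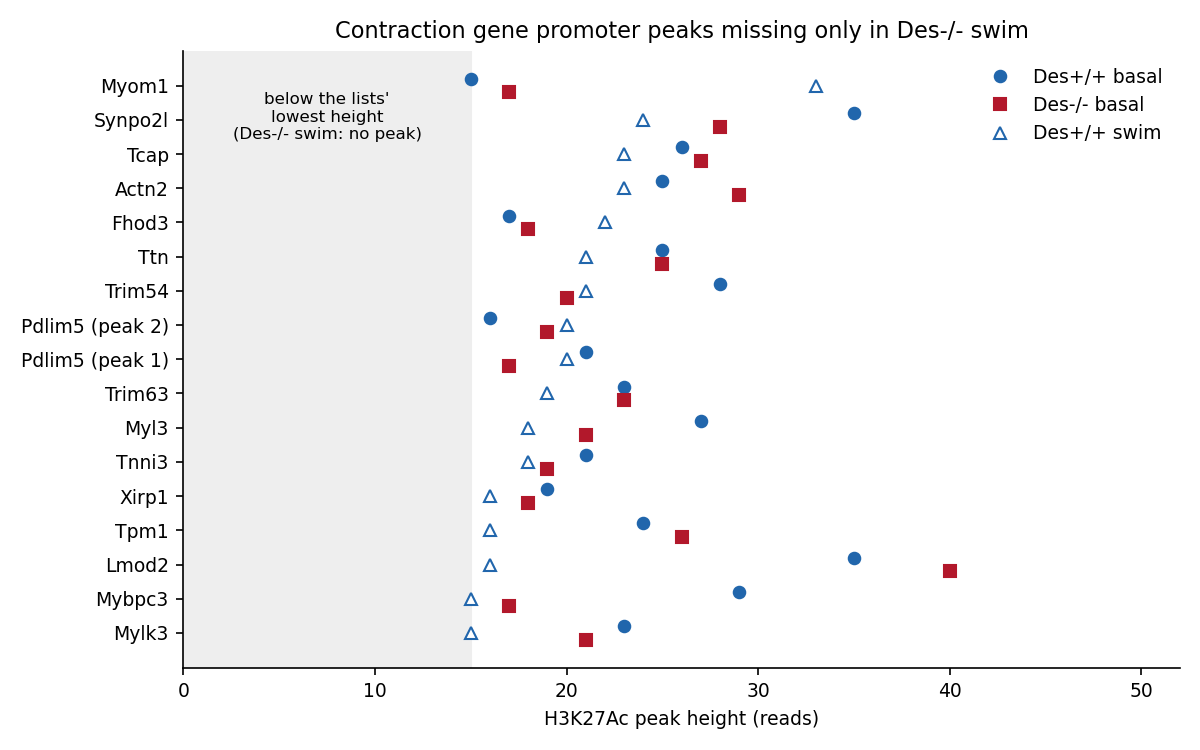
H3K27Ac height in reads (horizontal axis) at the 17 contraction gene promoter peaks missing only in Des-/- swim (rows), with filled blue circles for Des+/+ basal, red squares for Des-/- basal and open blue triangles for Des+/+ swim. Shading marks heights below the 15 reads of the lowest listed peak. Basal circles and squares lie on either side of each other, and most triangles lie to their left, between 15 and 24 reads, except Myom1 at 33.

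Contraction promoters that kept their peak were also low in Des-/- swim. Of 23 kept contraction peaks, 19 (82.6%) were lower in Des-/- swim than in Des+/+ swim, where 25.1% of all 5405 kept peaks were. The median ratio of Des-/- swim to Des+/+ swim height was 0.739 for these peaks and 1.14 for all kept peaks. Neither comparison was matched for height, and the contraction peaks were taller, with a median Des+/+ swim height of 27 reads against 24. Kept peaks also have at least 15 reads in Des-/- swim by choice. Both kept Pdlim7 peaks overlapped the same Des+/+ swim peak. Tnnc1, the calcium-binding subunit of troponin, had 37 reads in Des+/+ swim and 17 in Des-/- swim. Hspb7, a small heat shock protein of the sarcomere, had 30 and 15 reads. Myoz2, a Z-disc protein, had 39 and 25 reads. The 4 exceptions, each higher in Des-/- swim, were 1 peak each of Pdlim7 (26 and 28 reads), Pdlim1 (30 and 33), Myl4 (35 and 41) and Capza2 (42 and 51), and their Des-/- swim inputs were 10 to 14 reads. At the other kept contraction peaks that input was at most 7 reads.

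**Figure D3:**
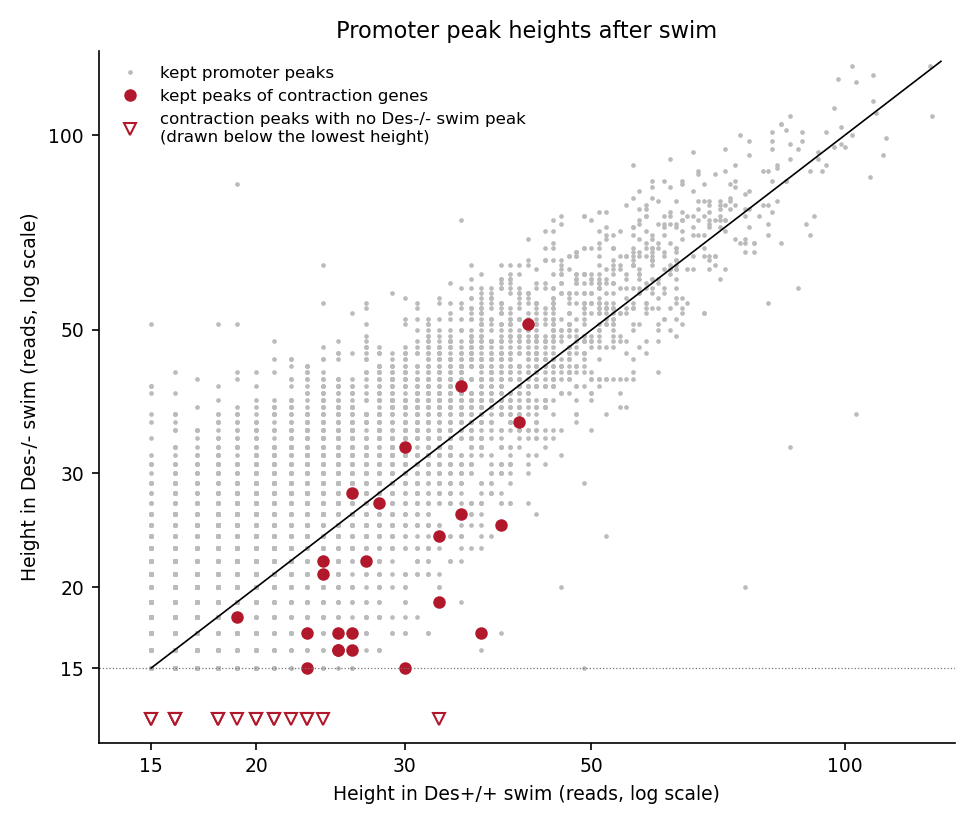
Height in Des-/- swim (vertical axis, reads, log scale) against height in Des+/+ swim (horizontal axis, reads, log scale) for kept promoter peaks (grey) and kept contraction peaks (red circles), with the line of equal height. Open red triangles below the dotted line at 15 reads are contraction members, which have no Des-/- swim peak. Of 23 red circles, 19 lie below the line, whereas 69.0% of all kept peaks lie above it.

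Calcium handling and ion channel genes had 7 of 21 eligible peaks missing (33.3%, Wilson interval 17.2% to 54.6%), against 3.82 at the rate of all peaks of the same height. In Des+/+ swim 1 of 15 was missing, against 2.24 at that rate. Pln, encoding phospholamban, the brake on the calcium pump SERCA2, had 22 reads in resting Des+/+ hearts, 20 in resting Des-/- hearts and 21 in Des+/+ swim. Its 3 heights were thus close to each other, and the gene kept 4 other Des-/- swim peaks. Orai1, the pore of the store-operated calcium channel, had 2 members, with 24 and 19 reads in Des+/+ swim, and no Des-/- swim peak annotated to it. Abcc9, encoding the regulatory subunit of an ATP-sensitive channel, had 15 reads in Des+/+ swim.

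Desmin partners, junction and nuclear envelope genes had 11 of 40 eligible peaks missing (27.5%, interval 16.1% to 42.8%). At the rate of all peaks of the same height 7.60 would have been. In Des+/+ swim 4 of 33 were missing, against 5.14 at the corresponding rate. Cryab, encoding alphaB-crystallin, the chaperone that binds desmin, had 2 members. The higher had 35 reads in resting Des+/+ hearts, 26 in resting Des-/- hearts and 23 in Des+/+ swim. Sgca, encoding alpha-sarcoglycan of the dystrophin complex, also had 2, of which the higher had 37, 25 and 24 reads. Neither gene had any Des-/- swim peak annotated to it, and at both the basal height was lower in Des-/- than in Des+/+. Sgcb, another sarcoglycan, had 30, 28 and 18 reads. Genes of the complex that ties the nucleus to the cytoskeleton gave 4 further members, 2 at Syne1 (20 and 16 reads in Des+/+ swim), 1 at Syne3 (17) and 1 at Sun2 (15). The desmosomal cadherin gene Dsc2 (18) and the vinculin gene Vcl (16, a border member) completed the list.

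Genes of fatty acid and glucose use had 20 of 76 eligible peaks missing (26.3%, interval 17.7% to 37.2%). At the rate of all peaks of the same height 11.6 would have been. In Des+/+ swim 6 of 62 were missing, against 10.6 at the corresponding rate. Fabp3, the heart fatty acid-binding protein, had 3 members, with 27, 19 and 19 reads in Des+/+ swim, all of which overlapped the same Des-/- basal peak. Cpt1b, the muscle carnitine palmitoyltransferase, had 34, 35 and 23 reads in the same order, and was a border member. Acadm, a mitochondrial acyl-CoA dehydrogenase, had 31, 31 and 19 reads. These heights were nearly equal between genotypes at rest, except at Fabp3, where the highest member had 31 and 22 reads. Both muscle creatine kinases were members, Ckmt2 with 2 peaks (21 and 15 reads in Des+/+ swim) and Ckm with 1 (15). The coactivator gene Ppargc1a had 2 members at 15 reads, both on the same Des+/+ swim peak. The nuclear receptors Esrra and Esrrb had 1 member each (19 and 21). The kinase gene Pfkfb2 had 22 reads in resting Des+/+ hearts, 20 in resting Des-/- hearts and 28 in Des+/+ swim, at a border member.

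Cardiac transcription factor and signalling genes had 10 of 42 eligible peaks missing (23.8%, interval 13.5% to 38.5%), and 8 of 40 missing in Des+/+ swim. At the rate of all peaks of the same height these counts would have been 6.60 and 5.91. At 20 reads or more in Des+/+ swim, 3.70% of the list's peaks were missing, against 7.29% of all peaks. Nkx2-5, a homeobox factor of the heart lineage, had 21 reads in resting Des+/+ hearts, 24 in resting Des-/- hearts and 16 in Des+/+ swim. Its Des+/+ swim peak started at position 26845607, near the member's end at 26845634 and beyond the Des-/- basal peak's end at 26845504. The swim height may thus lie outside the member, and the gene kept 1 other Des-/- swim peak. Nppb, encoding the natriuretic peptide of the stretched ventricle, had 19, 17 and 17 reads. Yap1, the coactivator of the Hippo pathway and a gene the study follows, had 33, 41 and 19 reads. The study's receptor gene Erbb4 had 18, 17 and 15 reads. The list's other members were Smad4 (33 reads in Des+/+ swim, a border), Meis2 with 2 peaks (19 and 16), Irx3 (19), Myocd (16) and Tbx20 (16, a border). Of 14 eligible peaks of the genes the study follows, 3 were missing (21.4%, interval 7.57% to 47.6%), at Actn2, Yap1 and Erbb4, a count near the 2.48 at the rate of all peaks of the same height.

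Lists of genes that every cell uses had low shares missing, and their peaks were often tall. Oxidative phosphorylation genes had 5 of 79 eligible peaks missing (6.33%, interval 2.73% to 14.0%) and the same count in Des+/+ swim, against 8.46 and 8.99 at the rate of all peaks of the same height. The 2 highest of the 5 were Cox7a1 (23, 24 and 21 reads in that order of lists) and Cox8b (28, 24 and 20), which encode the heart and muscle forms of cytochrome oxidase subunits. Chaperone and stress genes had 3 of 61 missing (4.92%, interval 1.69% to 13.5%), at Bag1 (18 reads in Des+/+ swim), Myc (16) and Dnajc3 (16). Circadian clock genes had 0 of 19, which allows a share of up to 15.8%. Cytosolic ribosome genes had 7 of 73 missing, with Rps24 the highest (20 reads in Des+/+ swim), and proteasome genes 4 of 34, with Psmd14 the highest (23). Chromatin modifiers had 5 of 55, with Smarcd3, a subunit of the SWI/SNF remodeller in heart, the highest (19). Basal transcription and splicing genes had 3 of 39, with the splicing factor gene Srsf1 the highest (36, a border), and autophagy and protein breakdown genes 6 of 50, with Foxo1 the highest (28, a border). These shares all lay below that of all eligible peaks. At the rate of all peaks of the same height, the counts would have been 6.16 for chaperone and stress, 1.57 for circadian clock, 9.24 for cytosolic ribosome, 4.23 for proteasome, 8.24 for chromatin modifier, 4.55 for basal transcription and splicing and 7.57 for autophagy genes, so the proteasome, autophagy, ribosome, splicing and clock counts lay within 3 peaks of that rate. Zinc finger genes, at 25 of 145 (17.2%), were at the share of all eligible peaks, and the highest was Zfp619 (31 reads in Des+/+ swim). Solute carriers had 27 of 95 missing (28.4%, interval 20.3% to 38.2%), against 19.7 at the rate of all peaks of the same height, with Slc35b3 the highest (22 reads). At 20 reads or more in Des+/+ swim that share was 10.7%, and it was 15.4% for the genes of fatty acid and glucose use and 16% for the desmin partner list, against 7.29% of all peaks.

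Mitochondrial ribosome genes were more often missing in Des+/+ swim than in Des-/- swim. They had 2 of 28 eligible peaks missing in Des-/- swim (7.14%, interval 1.98% to 22.6%), at Mrps35 (19 reads in Des+/+ swim) and Mrpl45 (18), and 15 of 41 missing in Des+/+ swim (36.6%, interval 23.6% to 51.9%). At the rates of all peaks of the same height these counts would have been 5.86 and 10.6, both within the list's own intervals. Endothelial genes had 2 of 15 missing, at Cd34 (20 reads in Des+/+ swim, a border) and Mmrn2 (16), and 5 of 18 missing in Des+/+ swim. At the rates of all peaks of the same height these counts would have been 3.82 and 3.60. Of the fibroblast genes 0 of 5 eligible peaks were missing, and the leukocyte genes had no eligible peak.

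**Figure D4:**
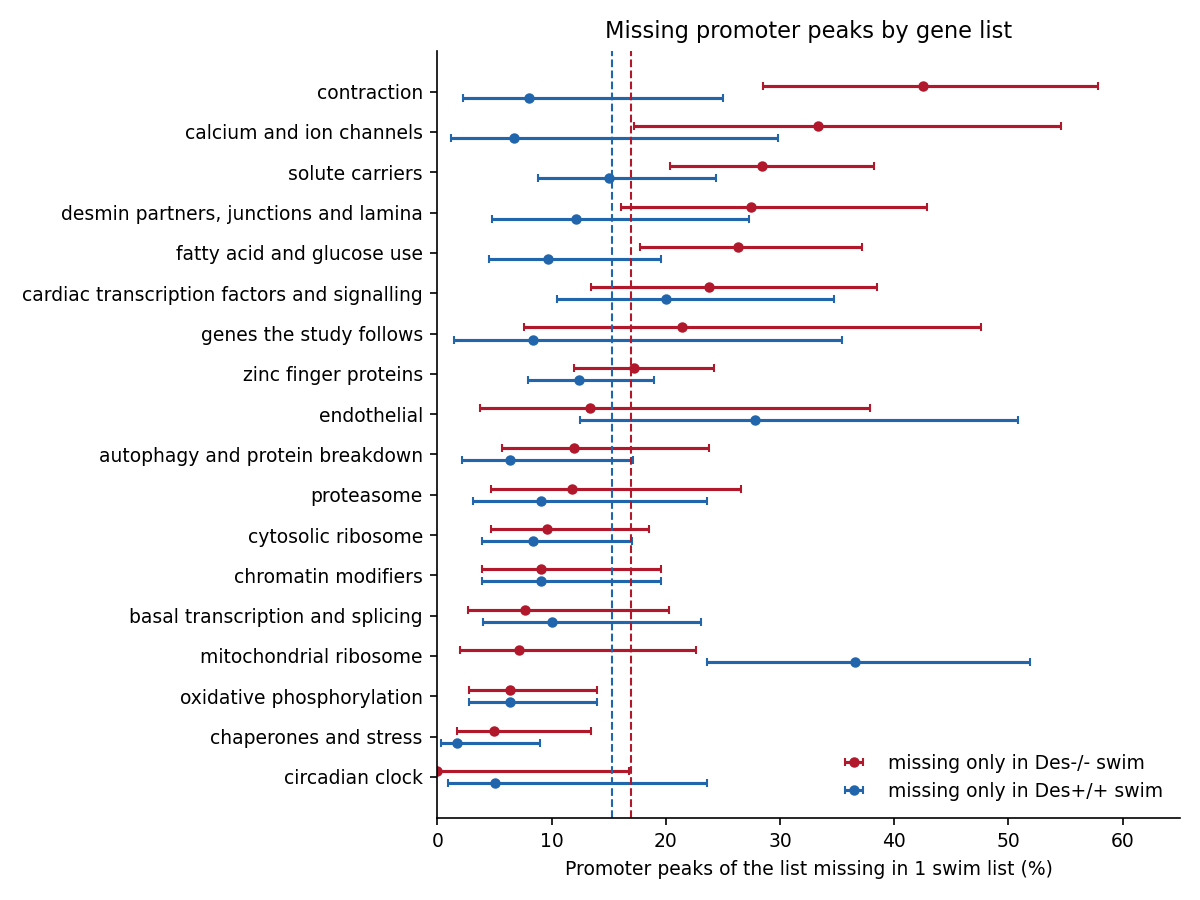
Percent of each gene list's eligible promoter peaks that were missing only in Des-/- swim (red) and only in Des+/+ swim (blue), with 95% Wilson intervals, for lists with at least 10 eligible peaks. Dashed lines mark the shares over all genes, 17.0% and 15.3%. Contraction genes lie highest in red at 42.5%, and mitochondrial ribosome genes highest in blue at 36.6%.

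Members had a larger CpG-poor fraction than kept peaks. The median CpG number in the 200 bp around the highest point was 15 in members and 15 in kept peaks of equal height, but 184 members (16.6%, interval 14.6% to 18.9%) had fewer than 5 CpG against 10.9% of the kept peaks of equal height. Of the 586 eligible peaks with fewer than 5 CpG, 31.4% were missing, and 138 would have been at the rate of all peaks of the same height. In the opposite set, 130 of 532 such peaks were missing, against 139 at the corresponding rate. Contraction promoters had fewer than 5 CpG at 11 of 17 members and 11 of 23 kept peaks, against 586 of all 6511 eligible peaks. The input of the Des-/- swim list moved with CpG number. It had a median of 3 reads at kept peaks with fewer than 5 CpG and 7 reads at the others. The median ratio of Des-/- swim to Des+/+ swim height was 1.03 and 1.14 in these 2 classes. The part of base composition in the missing peaks was not tested.

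**Figure D5:**
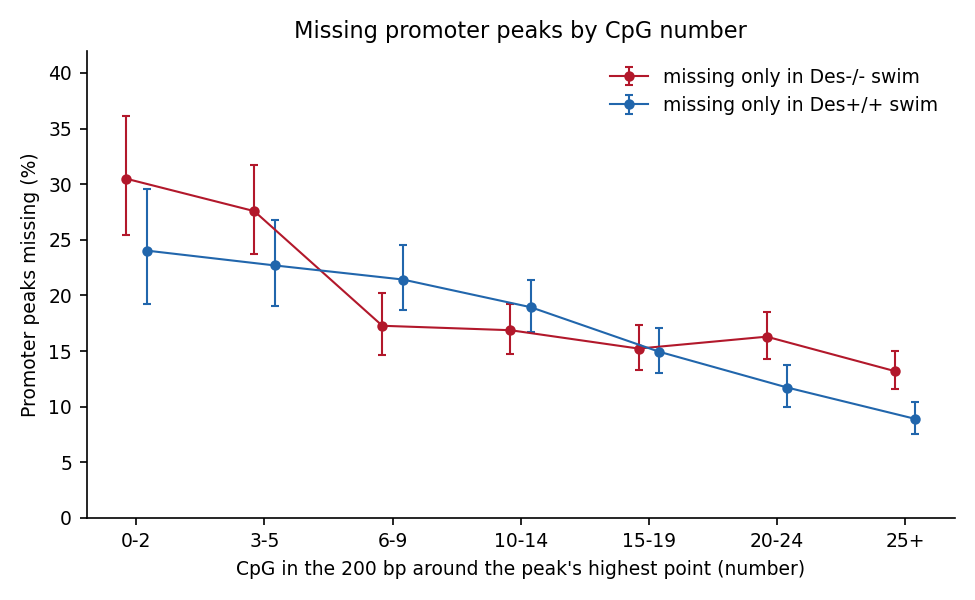
Percent of promoter peaks missing only in Des-/- swim (red) or only in Des+/+ swim (blue), with 95% Wilson intervals, by the number of CpG in the 200 bp around the highest point of the Des+/+ basal peak. The red share is 30.5% at 0 to 2 CpG and 13.2% at 25 or more.

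Most of the motifs searched were about as frequent at members as at kept peaks of equal height. A RefSeq promoter sequence (GRCm38.p6, from 250 bp before to 50 bp after the start) was matched by symbol and position to 747 of the 1106 members and searched on both strands. The GC box GGGCGG stood in 71.5% of them and in 71.9% of kept peaks of equal height, and in 35.7% of all 32851 RefSeq promoters. The ETS letters CCGGAAG stood in 18.1% against 21.2%, and in 8.86% of all promoters. The MEF2 motif, the target of a muscle transcription factor family, matched 20 members (2.68%) against 1.07% of kept peaks of equal height, with 3.19% of all promoters. The motif of NRF1, a regulator of mitochondrial genes, matched 10 members (1.34%) against 2.92% of kept peaks of equal height and 0.971% of all promoters. Of the 12 contraction members with a sequence, those of Mybpc3, Synpo2l and Ttn matched the MEF2 motif. The E-box CANNTG, which can overlap other motifs, stood in 9 of these 12 and in 62.1% of all members matched, against 59.0% of kept peaks of equal height and 72.3% of all promoters.

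Members came from every autosome and from chromosome X. The missing share of eligible peaks ran from 9.52% on chromosome 16 (20 of 210) to 26.3% on chromosome 8 (90 of 342). On chromosome X it was 18.3% (17 of 93), while 34 of 110 peaks (30.9%) were missing only in Des+/+ swim. Overlap with lamin A/C peaks, which mark contact with the nuclear lamina, was rare at all promoter peaks. It was found at 3 members (0.271%) and at 9 of the 5405 kept peaks (0.167%). Tcap was among the members, with a lamin A/C peak in Des-/- basal. At the limits of the selection, Asb2 was the farthest member from its start at 989 bp, and Sdhaf1 at 1021 bp lay just outside. Oxct1as was the widest at 2498 bp, and Bahcc1 at 2726 bp was excluded. Ankrd10 had the largest input among those at 9 reads, and Erdr1x with 12 was excluded.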

How the data were processed

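The authors immunoprecipitated H3K27Ac and lamin A/C from cardiomyocyte chromatin, aligned the reads to GRCm38 (mm10) with Bowtie2 2.4.4, sorted them with SAMtools 1.13, called peaks against input with an in-house script and annotated them with ChIPseeker 1.36.0 (versions per the submitters' processing notes). Peaks were called per library. How duplicates, read extension and differences in depth were handled is not given in the sources used here.

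Each deposited list gives the ChIP and the input signal at a peak, both as whole-number read coverage, beside deposited p-values and false discovery rates (at most 0.001), a deposited fold change of ChIP over input (a ratio), and width and distance to the start as deposited scores in bp. Signals were used as deposited, without scaling, since library depth is unknown from the files. The fold changes were used only to break ties and the p-values not at all.

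Peaks were matched by an overlap of 1 bp, and the highest partner gave the height. Kept peaks were weighted at each Des+/+ swim height to the number of members. The rate of all peaks of the same height was the missing share at each exact height, summed over a list's peaks. Shares carry 95% Wilson intervals, and a share of 0 was given the limit that 3 counts allow. The matching was tested on simulated peaks. Python 3.11.15, pandas 2.3.3, SciPy 1.17.1, pysam 0.24.0, samtools 1.23.1 and matplotlib 3.10.9 were used.

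Genes named are the 10 members highest in Des+/+ swim, the 3 highest of the contraction, calcium, desmin partner, transcription factor and fuel lists and the highest of each other list, and members at genes the study follows. Some members of the calcium list are not reported here by name and stay in its counts. All other named genes were chosen after their values were seen. The members and lists were chosen with earlier results of these data known, so no list is independent support. Alternatives changed the height minimum, partner rule, input, distance and width limits and the number of swim peaks. The input libraries enter only through the input signal of each list. Lamin A/C lists served only for overlap.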

Additional observations from a re-analysis of the deposited data

Results flagged for a closer look

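At 162 of the 1106 members the height was greater in Des+/+ swim than in Des+/+ basal while the peak was absent in Des-/- swim. Absence from the Des-/- swim list chose the members and no Des-/- swim height exists for them, so no change from rest to swim was measured in Des-/-, and with 1 library per group the difference between genotypes was not tested. Of these 162, 115 were members whose whole region lacked a Des-/- swim peak, and the rest were borders of wider peaks, such as Myom1 and Cfl2, whose region kept a Des-/- swim peak.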

How the results depend on the processing

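With at least 20 reads in the swim list that has the peak, 313 members remained (7.29% of eligible peaks, median Des+/+ swim height 22 reads, and 37.4% with another Des-/- swim peak at the gene), and 429 peaks were missing only in Des+/+ swim. Members were then lower than kept peaks of equal height in Des-/- basal (a difference of -8) and narrower by the same measure (-158 bp). A partner within 500 bp lowered the share to 14.2%, the share with another Des-/- swim peak to 19.6% and the width difference to -74 bp. The share of eligible peaks missing was 15.9% without the width limit and 15.9% with equal numbers of swim peaks. With those equal numbers the order of the 2 swim lists turned round, to 986 members and 1152 peaks missing only in Des+/+ swim. Counting only members whose whole region lacked a Des-/- swim peak, an alternative chosen after seeing the data, gave 15.4%, with another peak at the gene in 24.5% and a width difference of -74 bp. The share of contraction peaks missing ranged from 29.0% to 44.7% over these 8 alternatives. Of 142 gene list shares recomputed, 132 stayed within the interval of the reported value. At least 20 reads took the shares missing to 16% for desmin partners, 15.4% for fuel genes, 10.7% for solute carriers, 6.12% for zinc finger genes, 1.72% for cytosolic ribosome genes and 0 for chaperone, chromatin modifier and mitochondrial ribosome genes. Cardiac transcription factor genes fell to 3.70%, below the 7.29% of all peaks. Chaperone genes also came to 0 with a partner within 500 bp. Of the 39 peaks named by the rule, 22 remained members when a partner within 500 bp counted. No paired analysis was possible because each group had 1 H3K27Ac library. Low peaks limit these results, since a height of 15 reads has a wide counting interval and absence from a list does not show absence of the mark.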
